A study of Saccharomyces cerevisiae with 6 samples.

Results

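The retrograde pathway carries the state of the mitochondria to the nucleus. Rtg2, a cytosolic protein, relieves a block by Mks1, and the transcription factors Rtg1 and Rtg3 then enter the nucleus as a heterodimer and bind the R box, GTCAC, upstream of their targets. The peroxisomal citrate synthase gene CIT2 is the usual reporter of the pathway in budding yeast, because it rises strongly when respiration is lost. The pathway supplies 2-oxoglutarate for glutamate synthesis when the tricarboxylic acid cycle runs poorly.

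Here 7 of these genes were followed, each chosen by name: 3 targets (CIT2, DLD3 and PYC1) and 4 factors (RTG1, RTG2, RTG3 and MKS1), out of 7064 genes in 6931 loci of the deposited tables. All 7 formed a locus of their own in the transcript models, overlapped no other gene model and passed the expression filter. RNA had been sequenced from 6 samples of Saccharomyces cerevisiae W303, a common laboratory strain, to ask how cells respond to stress on mitochondrial protein import. There were 3 groups of 2 libraries: a wild-type control (WT), cells with a 2µ plasmid that expressed PSD1 from the GAL promoter, and cells with the same plasmid that also lacked PDR3 (pdr3Δ). These are called GAL-PSD1, for PSD1 overexpression, and pdr3Δ, which carried GAL-PSD1 too. Psd1 makes phosphatidylethanolamine in the inner membrane of mitochondria, and Pdr3 is a transcription factor of drug resistance genes. All samples grew in 1% yeast extract, 2% peptone and 2% raffinose. The labels give induction with 2% galactose for 4 h for all of them, marked as plus or minus without saying which, and they name no plasmid for WT.

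Libraries held 10220872 to 12315448 counts. The PSD1 transcript had 1494.7 and 1318.7 CPM (counts scaled to a common library size) in WT, 14464.7 and 16487.7 CPM in GAL-PSD1 and 9369.1 and 9070.2 CPM in pdr3Δ. PDR3 had 724 and 798 counts in WT, 2283 and 2245 in GAL-PSD1 but 3 and 9 in pdr3Δ. The galactokinase gene GAL1 reached 18.8 and 42.1 CPM in WT but 6008.0 to 8384.3 CPM in the other libraries. Effects of galactose, of the plasmid and of PSD1 cannot be told apart in a comparison with WT, and PSD1 itself differed between the groups with the plasmid.

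The R box was looked for first, because it is the feature by which Rtg1 and Rtg3 are known to find their targets. The letters GTCAC, read on both strands, occurred in the 500 bases before the coding start of 6 of 7 genes, all but MKS1. The same held for 42.5% of the 5945 protein-coding genes with a full window, so a single match is common. CIT2 had 3 matches, a number reached by 2.32% of all windows, and DLD3 had 2, a number reached by 11.3%. Both DLD3 matches lay within 300 bases of the coding start, where 4.0% of windows held 2 or more. CIT2, DLD3 and PYC1 were chosen as known targets, so these matches are not independent support for that role. PYC1 had 1 match far upstream, and it overlapped CACGTG, the E-box palindrome that other helix-loop-helix factors bind. The stretches that hold these matches are shown with that of CIT1, the mitochondrial citrate synthase gene, whose level changed where that of CIT2 did not pass the test. Capitals mark GTCAC or its reverse complement, and each stretch is read 5′ to 3′ on the strand of its gene, with 20 bases on either side. The letters are those of the R64 reference strain S288C and not of W303.
CIT2, chrIII:122500-122693, minus strand: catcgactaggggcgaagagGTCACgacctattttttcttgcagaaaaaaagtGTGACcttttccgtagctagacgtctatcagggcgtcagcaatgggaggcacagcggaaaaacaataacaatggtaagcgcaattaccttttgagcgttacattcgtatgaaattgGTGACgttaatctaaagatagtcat
DLD3, chrV:16175-16236, plus strand: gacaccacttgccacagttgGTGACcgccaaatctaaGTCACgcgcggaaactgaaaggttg
PYC1, chrVII:384688-384732, plus strand: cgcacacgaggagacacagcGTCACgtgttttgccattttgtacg
CIT1, chrXIV:631405-631449, minus strand: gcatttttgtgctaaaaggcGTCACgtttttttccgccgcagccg

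The DLD3 stretch lay between gene models. The other stretches overlapped the models YCR006C (CIT2), PUS2 (PYC1) and YNR001W-A (CIT1). Counted from the coding start, the CIT2 matches began at bases 345, 312 and 196 upstream, those of DLD3 at 160 and 143, that of PYC1 at 488 and that of CIT1 at 368. Among the factors, RTG1 had 1 match, at base 194, RTG2 had 1, at base 196, and RTG3 had 2, at bases 370 and 342. Of 6 other Rtg1/Rtg3 targets described below, 5 had a match in the 500 bases, and IDH2 had none. So did 7 of 10 regulators of the pathway, 4 of 5 paralogs of the targets and 6 of 17 nitrogen catabolite repressed genes. A match describes letters only, and binding was not measured.

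**Figure D1:**
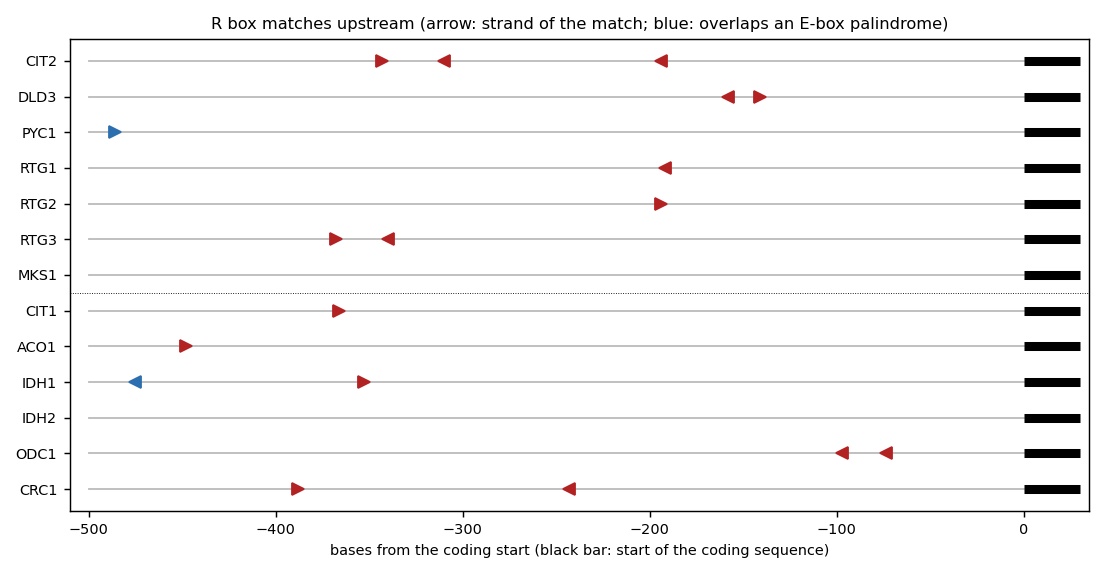
Positions of R box matches in the 500 bases before the coding start (x axis, bases) for the 7 retrograde genes, above the dotted line, and 6 other Rtg1/Rtg3 targets. Arrows point along the strand of the match, and CIT2 carries 3 of them.

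Taken by length, the targets were the more abundant transcripts. FPKM, the authors' level scaled for gene length and library depth, averaged 263 for PYC1, 151 for CIT2, 135 for DLD3, 104 for RTG2, 81.7 for RTG1, 53.6 for MKS1 and 53.4 for RTG3 over the 6 libraries. The median of all 6171 tested loci was 74.7 FPKM. The ranges over libraries overlapped between CIT2 (132 to 178) and DLD3 (119 to 145), and between MKS1 (52.5 to 55.4) and RTG3 (47.7 to 58.8). Other neighbours in this order did not overlap. Counts behind these levels ran from 362 for RTG1 to 13227 for PYC1 in a library.

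The retrograde genes moved little when PSD1 was overexpressed. By edgeR's quasi-likelihood test, 1 of 7 was higher than in WT (DLD3), 1 was lower (PYC1) and 5 did not pass, while 55.8% of all 6171 loci passed an adjusted p of 0.05, with 27.9% higher and 27.9% lower. The 7 log2 fold changes lay between -0.16 and 0.22 with a median of -0.05. The median over all loci was 0.01 and the median absolute change 0.24. In all 7 genes the libraries of the groups did not overlap, for CIT2 only before rounding, as was so for 77.8% of loci.

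CIT2 (YCR005C, chromosome III, 120946 to 122328) had 191 and 195 CPM in the WT libraries, 191 and 169 in GAL-PSD1 and 227 and 184 in pdr3Δ. Only the lower GAL-PSD1 library stood clearly apart from WT, and the pdr3Δ libraries differed more from each other than the groups did. GAL-PSD1 differed from WT by log2 -0.10 ± 0.09 (SE, edgeR adjusted p = 0.389), with a 95% interval of -0.30 to 0.11. The interval corresponds to 0.81 to 1.08 times the WT level, and 22.4% of loci had a smaller absolute change.

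DLD3 (YEL071W, chromosome V, 16355 to 17845) encodes a cytosolic enzyme that turns 2-hydroxyglutarate into 2-oxoglutarate while reducing pyruvate to lactate. It had 173 and 185 CPM in WT, 210 and 206 in GAL-PSD1 and 211 and 190 in pdr3Δ, so that all libraries with the plasmid lay above those of WT. The rise with PSD1 was 1.16-fold (log2 0.22 ± 0.06, edgeR adjusted p = 0.0119). It did not pass without WT library 1 (log2 0.17, adjusted p = 0.0651) or GAL-PSD1 library 1 (0.20, adjusted p = 0.077).

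PYC1 (YGL062W, chromosome VII, 385196 to 388732) encodes a pyruvate carboxylase of the cytosol, which makes oxaloacetate. Its levels were 1078.1 and 1079.5 CPM in WT, 997 and 938 in GAL-PSD1, and 1030.4 and 1120.3 in pdr3Δ, whose libraries lay on either side of WT. The fall with PSD1 came to 0.897 times the WT level (log2 -0.16 ± 0.06, edgeR adjusted p = 0.0376). This call was lost when any library of either group was left out (log2 -0.20 to -0.11, adjusted p = 0.0503 to 0.239) and with FPKM (0.0591 to 0.0692). PYC1 shares 13.37% of its 30-base words with its paralog PYC2, so reads wholly within shared stretches could be assigned to either gene. Read length was not taken into account. No 30-base word was shared between CIT2 or DLD3 and their paralogs.

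The factors gave no call against WT. RTG1 (YOL067C, chromosome XV, 201985 to 202518), one partner of the heterodimer, had 32.8 and 34.0 CPM in WT, 34.3 and 35.5 in GAL-PSD1 and 38.0 and 35.5 in pdr3Δ. RTG3 (YBL103C, chromosome II, 22076 to 23536), the other partner and the one with the activation domain, had 67.3 and 78.1, 78.8 and 80.5, and 66.1 and 65.7 CPM in the same order. For RTG3 the WT libraries thus spanned most of the distance between the other groups. Against WT, GAL-PSD1 stood at log2 0.06 for RTG1 (95% interval -0.11 to 0.24, edgeR adjusted p = 0.529) and at 0.13 for RTG3 (-0.03 to 0.29, 0.153). Without WT library 2 the RTG3 difference passed (log2 0.24, edgeR adjusted p = 0.0122).

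RTG2 (YGL252C, chromosome VII, 25718 to 27484), the sensor of the pathway, had 186 and 187 CPM in WT, 184 and 177 in GAL-PSD1 and 175 and 184 in pdr3Δ. MKS1 (YNL076W, chromosome XIV, 483556 to 485310), the inhibitor of the pathway that Rtg2 relieves, had 91.2 and 91.0, 87.0 and 88.6, and 89.9 and 90.5 CPM. These were the steadiest of the 7 genes. Against WT they differed by log2 -0.05 with PSD1, with 95% intervals of -0.16 to 0.06 for RTG2 and -0.17 to 0.06 for MKS1 (edgeR adjusted p = 0.438 and 0.392).

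**Figure D2:**
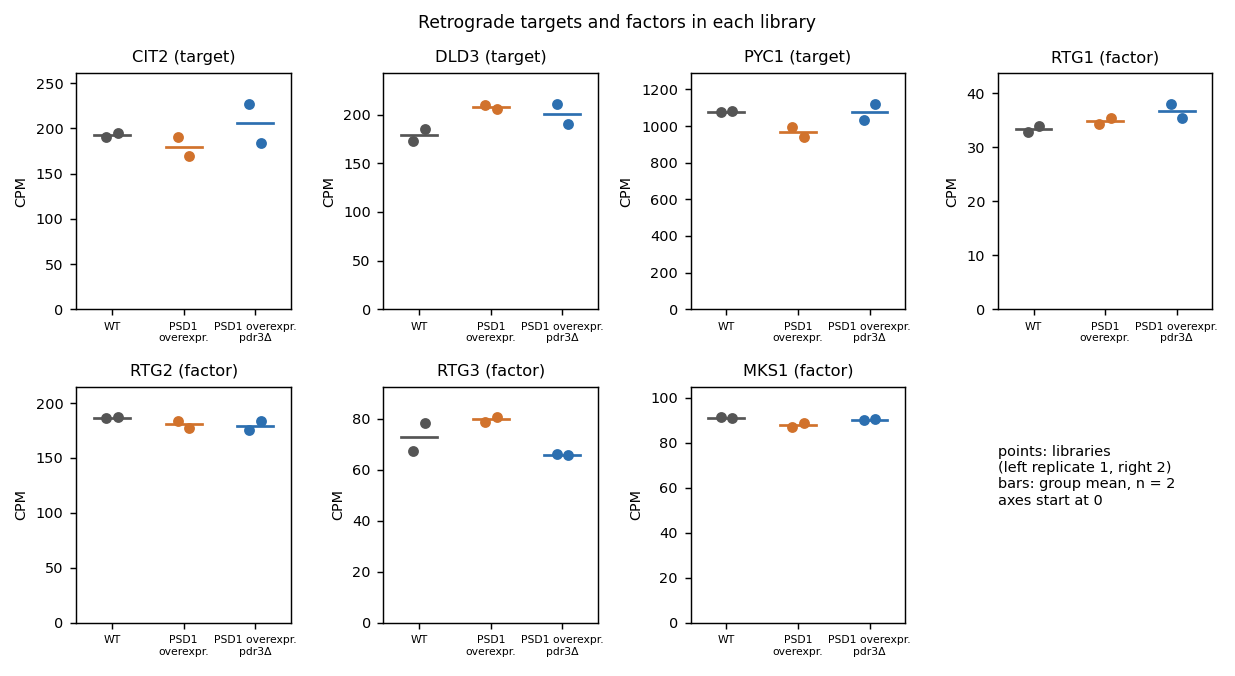
Level of each retrograde gene (y axis, CPM from 0) in the 2 libraries of each group, with a bar at the group mean. DLD3 sits at 173 and 185 CPM in WT and at 190 or above elsewhere, and RTG3 is lowest in pdr3Δ at 65.7 and 66.1 CPM.

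The loss of PDR3 during PSD1 overexpression was compared next, with the same GAL-PSD1 libraries as reference. RTG3 was the 1 gene of 7 that passed, and it was lower in pdr3Δ. Over all loci 20.9% passed, with 9.12% of all loci lower and 11.8% higher. The loci that passed numbered 1291, but 535 and 233 without GAL-PSD1 library 1 or 2, 796 and 615 without pdr3Δ library 1 or 2, and 805 with DESeq2. RTG3 stood at 0.828 times the level with PDR3 (log2 -0.27 ± 0.07, edgeR adjusted p = 0.027), and 83.7% of loci had a smaller absolute change. The call did not hold without any single library of these groups (log2 -0.29 to -0.26, adjusted p = 0.0791 to 0.155), with DESeq2 (0.0535) or with FPKM (0.0591 to 0.0783). The ratio of RTG1 to RTG3 in FPKM was 1.54 and 1.39 in WT, 1.36 and 1.42 in GAL-PSD1 and 1.84 and 1.74 in pdr3Δ, so the pdr3Δ libraries had the highest values of this ratio, which was chosen after the levels were seen.

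The targets did not pass in this comparison. CIT2 stood at log2 0.19 ± 0.09 (95% interval -0.01 to 0.40, edgeR adjusted p = 0.174), PYC1 at 0.15 ± 0.06 (0.03 to 0.28, adjusted p = 0.0843) and DLD3 at -0.05 ± 0.06 (-0.19 to 0.08, adjusted p = 0.575). The CIT2 value rested on pdr3Δ library 1, at 227 CPM. Without pdr3Δ library 2 it was 0.34 (edgeR adjusted p = 0.0182), and over all alternatives it ran from 0.03 to 0.34. RTG1 (0.08), RTG2 (-0.01) and MKS1 (0.04) had edgeR adjusted p of 0.537, 0.92 and 0.63. Libraries did not overlap between the groups for 3 of 7 genes (PYC1, RTG3 and MKS1), against 63.5% of loci.

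Between pdr3Δ and WT, none of the 7 genes passed, whereas 39.1% of loci did, 19.6% higher and 19.5% lower. By edgeR 1 gene, DLD3, had an unadjusted p under 0.05 (log2 0.16 ± 0.06, adjusted p = 0.0565), and DESeq2 also called 0 of 7. CIT2 stood at 0.09 with a 95% interval of -0.11 to 0.30 (edgeR adjusted p = 0.46). In single fits that left out a library, CIT2 (0.24), DLD3 (0.21 and 0.24) and RTG3 (-0.24) passed, DLD3 also with library totals as the only scaling (0.19). Libraries did not overlap between the groups for 5 of 7 genes, against 69.4% of loci.

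Other targets of Rtg1 and Rtg3 did fall. Of 6 such genes, 5 were lower with PSD1 and none was higher, beside 27.9% of all loci in each direction. The median log2 fold change of the 6 was -0.95, beside 0.01 over all loci. The 5 lower genes were CIT1, the aconitase gene ACO1, the isocitrate dehydrogenase genes IDH1 and IDH2, and ODC1, a carrier of 2-oxoglutarate across the inner membrane. CIT1 had 1610.3 and 1504.4 CPM in WT, 754 and 709 in GAL-PSD1 and 1103.4 and 947 in pdr3Δ, with no overlap between any groups. The fall with PSD1 was to 0.47 times WT (log2 -1.09 ± 0.08, edgeR adjusted p = 1.21e-06). ACO1 fell by 1.03 ± 0.07, ODC1 by 1.04 ± 0.07, IDH2 by 0.87 ± 0.05 and IDH1 by 0.81 ± 0.05 on the log2 scale (edgeR adjusted p = 4.52e-07 to 8.19e-07). The IDH2 value carries a limit, because the model of YOR135C covers 251 bp of it on the other strand and no source used here says whether counting used strand. All 5 genes serve the tricarboxylic acid cycle or its exchange with the cytosol, and other regulators act on them too.

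In pdr3Δ the same 5 genes passed as higher than in GAL-PSD1 and as lower than in WT, beside 11.8% and 19.5% of all loci. Against GAL-PSD1, CIT1 was higher by log2 0.49 ± 0.07 (edgeR adjusted p = 0.00255) and ODC1 by 0.42 ± 0.07 (0.0029), while IDH1, IDH2 and ACO1 were higher by 0.21 to 0.23 (0.0119 to 0.0456). None of these 5 calls held in every fit that left out a library. Without GAL-PSD1 library 2, CIT1 stood at 0.44 (edgeR adjusted p = 0.058) and ODC1 at 0.34 (0.053). Without single libraries of either group, IDH1 (0.18 to 0.25, adjusted p = 0.0855 to 0.0977) and IDH2 (0.19 to 0.24, 0.0723 to 0.102) also missed the threshold, and ACO1 missed it in 9 of 17 alternatives. PSD1 was lower in pdr3Δ than in GAL-PSD1 (log2 -0.75), and its part in these values was not tested. The sixth gene, the carnitine carrier gene CRC1, did not pass, at log2 -0.10 ± 0.30 (edgeR adjusted p = 0.793). Its WT libraries differed widely, at 20.9 and 47.7 CPM. It was lower without WT library 1 (log2 -0.57, edgeR adjusted p = 0.00781) and higher by 0.62 without WT library 2 (adjusted p = 0.0128).

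**Figure D3:**
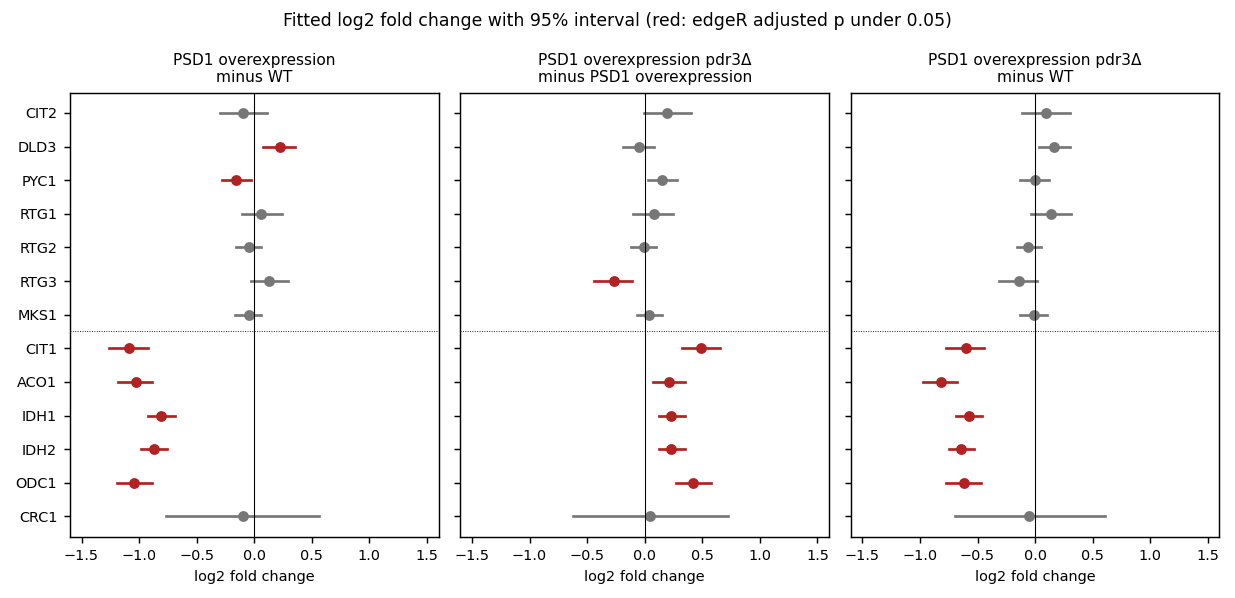
Fitted log2 fold change (x axis) with 95% interval for the 7 retrograde genes, above the dotted line, and 6 other Rtg1/Rtg3 targets in the 3 comparisons, red where the edgeR adjusted p was under 0.05. The retrograde genes lie between -0.27 and 0.22, whereas 5 other targets lie between -1.09 and -0.81 with PSD1.

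The targets were also set beside their paralogs, related enzymes that in part work in other compartments. Of 5 paralogs, 4 were lower with PSD1 and none was higher, with a median of -0.43, beside 27.9% of all loci in each direction. This count shares CIT1 with the other targets above. CIT1 exceeded CIT2 in FPKM by 7.84 and 7.17 times in WT, by 3.69 and 3.89 times in GAL-PSD1 and by 4.51 and 4.79 times in pdr3Δ. The log2 ratio of CIT2 to CIT1 averaged -2.91 in WT and -1.92 in GAL-PSD1 while CIT2 itself differed by -0.10 and CIT1 by -1.09 in the fit. The third citrate synthase gene, CIT3, fell by 0.55 ± 0.11 (edgeR adjusted p = 0.00186).

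PYC2, the second pyruvate carboxylase gene, fell by 0.43 ± 0.05 with PSD1 (edgeR adjusted p = 3.96e-05), and the log2 ratio of PYC1 to PYC2 in FPKM averaged 1.30 in WT, 1.57 in GAL-PSD1 and 1.59 in pdr3Δ. DLD2, the matrix paralog of DLD3, stood at 0.04 ± 0.05 (adjusted p = 0.52), and DLD1, the D-lactate dehydrogenase that feeds electrons to cytochrome c, fell by 0.18 ± 0.05 (adjusted p = 0.013). Leaving out GAL-PSD1 library 2 ended the DLD1 call (-0.13, edgeR adjusted p = 0.123). The log2 ratio of DLD3 to DLD2 averaged -0.53 in WT, -0.33 in GAL-PSD1 and -0.39 in pdr3Δ. The difference in response between a target and its paralog was not tested.

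**Figure D4:**
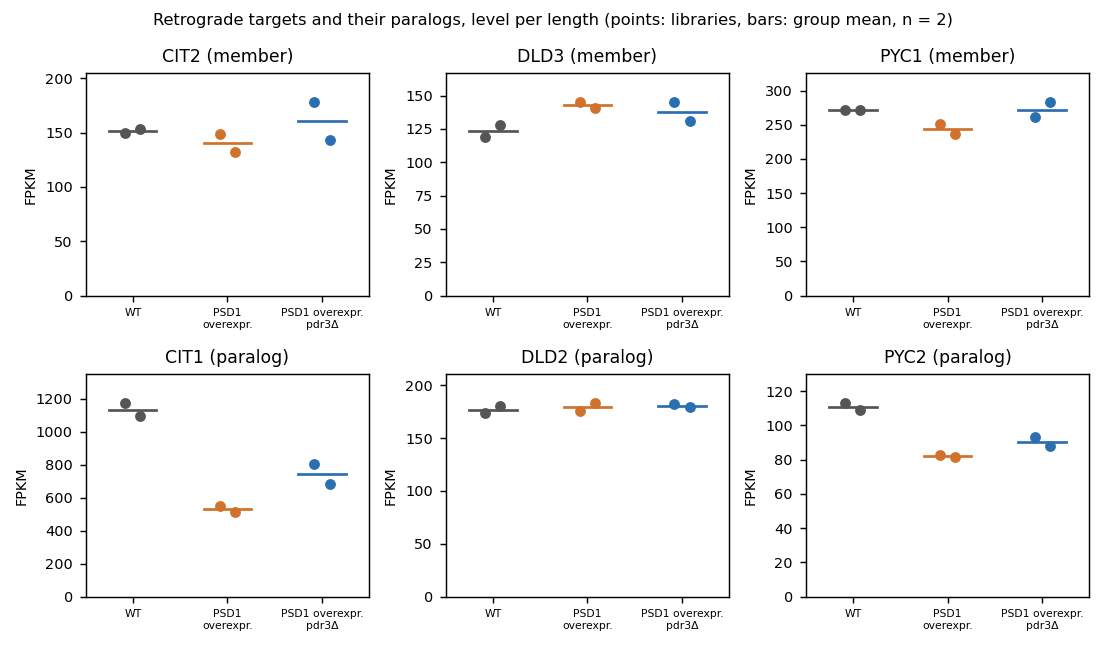
Level per length (y axis, FPKM from 0) of CIT2, DLD3 and PYC1, top, and of a paralog of each, bottom, in the 2 libraries of each group with the group mean. CIT1 drops from 1174 and 1095.1 FPKM in WT to 551 and 512 with PSD1, while CIT2 stays between 132 and 178 in all 6 libraries.

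Upstream of the factors, 10 regulators were looked at: subunits of the TOR complexes, the 14-3-3 proteins that bind Mks1, the F-box protein that marks free Mks1 for degradation, and the nitrogen regulators Ure2 and Gln3. With PSD1, 2 were higher, 1 was lower and 7 did not pass, beside 27.9% of all loci in each direction. Their median was 0.05. LST8, a TOR complex subunit that acts as a negative regulator of the pathway, had 65.7 and 81.4 CPM in WT, 151 and 142 in GAL-PSD1 and 132 and 128 in pdr3Δ. Its rise was 1.99-fold (log2 0.99 ± 0.09, edgeR adjusted p = 5.61e-06), and it was also higher in pdr3Δ than in WT (0.82 ± 0.09, adjusted p = 4.21e-05). LST8 lies 501 bp from SIS1, a gene for an Hsp40 chaperone that is read in the opposite direction and was chosen after its values were seen. SIS1 rose in the same comparison (log2 1.32 ± 0.05, edgeR adjusted p = 1.67e-08). On the other side MRP7, also read in the opposite direction, lies 334 bp from LST8, and its level is not given here. The part of either neighbour in the LST8 value was not tested.

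The other calls among the regulators were small. BMH1, a 14-3-3 gene, rose by 0.16 ± 0.05 (edgeR adjusted p = 0.0241) and URE2 fell by 0.14 ± 0.05 (adjusted p = 0.0281). Both were lost when single libraries were left out, BMH1 without WT library 1 (adjusted p = 0.0676) or GAL-PSD1 library 1 (0.163), and URE2 without WT library 2 (0.0987) or either GAL-PSD1 library (0.174 and 0.0556), and URE2 also with DESeq2 (0.095). TCO89, a TORC1 subunit, stood at 0.21 ± 0.10 (adjusted p = 0.089) and passed without WT library 1 (0.31, 0.0268) or GAL-PSD1 library 1 (0.32, 0.039). Between pdr3Δ and GAL-PSD1 none of the 10 passed, beside 20.9% of all loci, and all 10 had log2 fold changes between -0.20 and 0.01. LST8, at -0.17 (edgeR adjusted p = 0.167), passed when only these groups were fitted or when either WT library was left out (adjusted p = 0.0258 to 0.0295).

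Glutamate is the product the pathway serves. All 5 genes of glutamate and glutamine metabolism were lower with PSD1, with a median of -0.37, beside 27.9% of all loci lower. GDH1, the main glutamate dehydrogenase of synthesis, fell by 0.89 ± 0.05 (edgeR adjusted p = 5e-07), the catabolic enzyme gene GDH2 by 0.52 ± 0.05, the GDH1 paralog GDH3 by 0.37 ± 0.09 and the glutamate synthase gene GLT1 by 0.32 ± 0.05. In pdr3Δ, 4 of 5 were lower than in WT, beside 19.5% of all loci. Of the 5, 1 gene, GDH1, was higher in pdr3Δ than in GAL-PSD1 (log2 0.37), beside 11.8% of all loci.

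Of 8 genes of the glyoxylate cycle and acetyl transfer, which work beside Cit2, 4 were lower with PSD1, 2 higher and 2 did not pass. The median was -0.24, and 27.9% of all loci passed in each direction. The lower genes include ICL1 (log2 -0.79 ± 0.23) and MLS1 (-0.81 ± 0.22). Their WT libraries stood far apart, at 415 and 767 CPM for ICL1 and 123 and 229 CPM for MLS1. Fits without single libraries were not examined for either. ACO1, which this list shares with the targets, is given above. The carnitine acetyltransferase gene YAT2 fell by 0.58 ± 0.13 (edgeR adjusted p = 0.00367), with WT libraries at 214 and 291 CPM, and stood at -0.78 without WT library 1 and -0.34 without WT library 2, passing in both. MDH2, the cytosolic malate dehydrogenase, rose by 0.65 ± 0.13 (0.00201) and CAT2, a second carnitine acetyltransferase, by 0.45 ± 0.11 (0.00605). CAT2 stood at 0.30 without WT library 1 and, with GAL-PSD1 library 2 left out, no longer passed (edgeR adjusted p = 0.0563). Of 3 peroxisomal genes reported to need the RTG genes, PEX11, which drives peroxisome division, rose with PSD1 by 0.40 ± 0.06 (edgeR adjusted p = 0.000245). The catalase gene CTA1 fell by 0.37 ± 0.08 (0.00217) and the acyl-CoA oxidase gene POX1 stood at 0.08 ± 0.11 (0.562). In pdr3Δ, PEX11 (log2 -0.23) and POX1 (-0.39) were lower than in GAL-PSD1 (edgeR adjusted p = 0.0213 and 0.0379), beside 9.12% of all loci. CTA1 did not pass there (0.22, edgeR adjusted p = 0.0683). Fits without single libraries were not examined for these genes in that comparison.

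Mks1 is also known as Lys80, a regulator of lysine synthesis, and shares its nitrogen signals with Ure2. Of 8 lysine genes 3 were higher with PSD1, 2 lower and 3 did not pass, with a median of -0.01, beside the same 27.9% of loci higher and 27.9% lower. The saccharopine pathway genes LYS9 (0.66 ± 0.05) and LYS1 (0.45 ± 0.08) and the homocitrate synthase gene LYS20 (0.54 ± 0.08) rose. The homoaconitase gene LYS4 fell by 0.29 ± 0.05, and for these genes the edgeR adjusted p ran from 4.55e-06 to 0.000677. The other lower gene, LYS21, also encodes a homocitrate synthase and fell by 0.16 ± 0.05 (edgeR adjusted p = 0.0269). Fits without single libraries were not examined for LYS21. Of 17 genes under nitrogen catabolite repression, 6 were higher, 6 lower and 5 did not pass, with a median of -0.05. This count too stands beside 27.9% of all loci in each direction. Among the called genes, DAL80 and DAL7 (higher) and GAT1 (lower) overlap a model on the other strand by 407, 268 and 650 bp. Their values carry the limit given for IDH2. The proline oxidation genes PUT1 (1.58 ± 0.11) and PUT2 (0.68 ± 0.05) rose, whereas the amino acid permease gene GAP1 fell by 0.42 ± 0.05 and the ammonium permease gene MEP3 by 0.56 ± 0.06 (edgeR adjusted p = 1.33e-06 to 4.47e-05). MKS1 itself differed by log2 -0.05 in the same comparison.

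**Figure D5:**
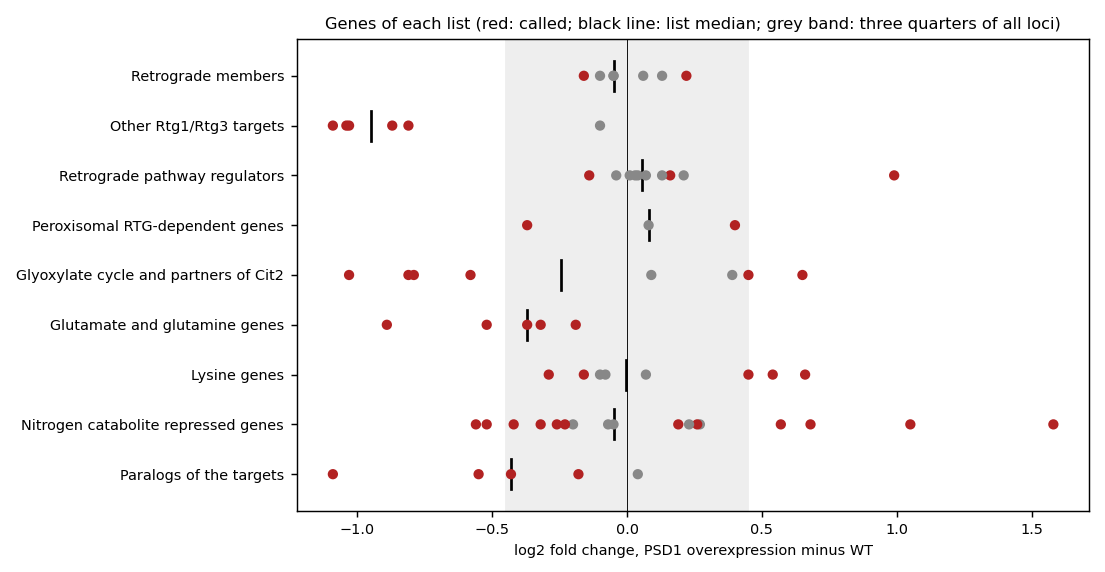
Log2 fold change of GAL-PSD1 minus WT (x axis) for every gene of the retrograde set and of each list, red where the edgeR adjusted p was under 0.05, with a line at each list's median. The grey band reaches 0.45 on either side of 0 and ends at the third quartile of the absolute change over all 6171 loci, and all 7 retrograde genes lie inside it.

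The loci whose pattern over the 6 libraries was most like that of a target were found by the Euclidean distance between log2 CPM values centred on their own mean, among 5792 other loci with a mean log2 CPM of at least 2. Nearest to CIT2 were VIK1 (distance 0.127), MCO6 (0.145) and ASF2 (0.146), beside a median distance of 0.441. Nearest to DLD3 were ZRT2 (0.049), APS1 (0.0607) and ADK2 (0.0617), and nearest to PYC1 were SLU7 (0.0299), GCN3 (0.0328) and TOA1 (0.0516). No other gene of the retrograde set or of the lists was among these 9. Those genes are few beside 5792 loci, so their absence cannot show whether the targets move with their pathway.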

How the data were processed

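RNA from 6 W303 samples was extracted on silica columns and made into TruSeq libraries, per the labels. The submitters' processing notes name the R64 (sacCer3) build and, without role or order, Cuffdiff 2.2.0, Cufflinks 2.2.0, TopHat2 2.0.9, SAMtools 0.1.18 and Bowtie2 2.1.0. The authors' deposited count table holds raw counts per locus, and their deposited FPKM table the same 6931 loci scaled by length and library depth, which is what the name in the file headers stands for. No source used here names the counting tool. Gene positions come from the authors' deposited transcript models, which hold coding lengths, and 99.68% of the 6007 genes shared with the R64 RefSeq annotation had the same start and end. Upstream stretches were read from that R64 genome.

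Counts were fitted with edgeR 4.0.16 in R 4.3.3 over all 6 libraries (TMM scaling, factors 0.99 to 1.012, expression filter by group, quasi-likelihood test, Benjamini-Hochberg over 6171 loci). This left 3 residual degrees of freedom and a biological coefficient of variation of 4.66%. Standard errors (n = 2 per group) come from the F statistic, as |log2 fold change|/√F, and 95% intervals from the t distribution with its total degrees of freedom. Depth of 10220872 to 12315448 counts limits precision for genes with few counts. The labels do not say that the 2 samples of a group were separate cultures, and the p-values then rest on a spread between samples that may be technical. Both libraries of each group differed beyond counting noise (chi-square per degree of freedom 7.18, 3.02 and 5.91).

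Genes and lists were chosen with earlier results of these data known. Named were the 7 members, their paralogs and up to 4 list genes of smallest p in PSD1 overexpression against WT. The nearest patterns and PSD1, PDR3 and GAL1 were named too. Others are said to be chosen after their values were seen, complete a list's count, or are named for an overlap or as a neighbour. The lists were described by counts and medians, without a set test. Alternatives were DESeq2 1.42.0, limma 3.58.1 on log2(FPKM + 1) and log2(FPKM + 0.1), 3 other scalings, 2 other filters, fits of only the groups compared, a replicate block and each library left out.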

Additional observations from a re-analysis of the deposited data

How the results depend on the processing

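Over 17 alternatives for each of the 7 genes in 3 comparisons (357 values), 325 kept their direction and their side of the threshold, 17 lost a call, 7 gained one and 8 changed sign, and the cause was not tested. The number of the 7 genes called higher with PSD1 ranged from 0 to 2 when single libraries were left out, and the number called lower from 0 to 1. With FPKM 0 were lower in that comparison. Between pdr3Δ and GAL-PSD1 the number ranged from 0 to 1 in each direction, with 0 lower by DESeq2 and by FPKM. Between pdr3Δ and WT it ranged from 0 to 2 higher and from 0 to 1 lower, with 1 higher on library totals alone. Loci called between pdr3Δ and GAL-PSD1, 1291 at first, came to 805 with DESeq2, to 825, 829 and 645 with FPKM (pseudocounts of 1 and 0.1, and 1 with no filter) and to 233 to 1533 when a library was left out. Genes of the lists called in that comparison went from 11 to 7 with FPKM and to 2 to 13 without single libraries, and against WT from 35 to 23 with unfiltered FPKM. Signs changed between pdr3Δ and GAL-PSD1 for DLD3 (leave-one-out range -0.14 to 0.02), RTG2 (-0.05 to 0.03, and 0.01 on library totals), DLD2 (-0.04 to 0.03, 0.02 on library totals, 0.0001 with the replicate block and 0.01 with FPKM) and CRC1 (-0.17 to 0.25). Between pdr3Δ and WT they changed for CIT2 (-0.07 to 0.24), PYC1 (-0.07 to 0.05, and 0.02 on library totals), MKS1 (0.01 on library totals) and CRC1 (-0.52 to 0.68, and 0.06, 0.07 and 0.06 with FPKM), and with PSD1 for CRC1 (-0.57 to 0.62, and 0.03 with FPKM) and POX1 (-0.04 to 0.20). Deviations of same-numbered samples correlated at 0.041 between WT and GAL-PSD1, 0.194 between WT and pdr3Δ and -0.02 between GAL-PSD1 and pdr3Δ. Whether replicate numbers pair the samples was not tested. With the replicate block 3491, 1393 and 2483 loci were called in the 3 comparisons, beside 3443, 1291 and 2415 without it, and the block changed no call among the 7 genes. MEL1, one of the galactose genes to be left out of library sizes, has no gene model in these files and was not used.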

Other observations

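Some genes of the lists stood far apart between the WT libraries, and they were chosen after their values were seen. The isocitrate lyase gene ICL1 had 236 and 437 FPKM in the WT libraries, 189 and 199 in GAL-PSD1 and 176 and 236 in pdr3Δ. The malate synthase gene MLS1, the partner of ICL1 in the glyoxylate cycle, had 73.6 and 136 FPKM in WT, 58.3 and 61.8 in GAL-PSD1 and 59.8 and 72.0 in pdr3Δ. For both genes, as for CRC1, WT library 2 was the highest of the 6.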
